A study of Mus musculus with 6 samples.

Results

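The genes described are 10 regulators of the integrated stress response: Atf4, Atf5, Atf3, Ddit3, Cebpb, Cebpg, Trib3, Chac1, Nupr1 and Sesn2. They were chosen by symbol for their known roles, with earlier results of these data known. Each was present in the table, so they make up 10 of 29072 genes. A gene with several transcript rows was represented by a single RefSeq row, the highest of its RefSeq rows. All 10 passed the filter on low values (at least 1 RPKM on average in knockout or wildtype libraries), as did 11562 genes in all. Chac1 did so through the knockout mean only. RPKM are reads scaled to the length of the transcript and to the total of the library. The RNA came from interscapular brown fat, a depot that burns fuel to produce heat. The libraries were 3 from UCP1-KO mice, labelled UCP1(-/-), and 3 from wildtype mice. Both groups were of the C57BL/6J strain. The labels give no age, sex, housing temperature or agent, and do not say which part of Ucp1 was deleted. They do not say that the replicates were separate animals, and the spread between them, on which all p-values here rest, may therefore be technical.

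The integrated stress response begins when stress kinases phosphorylate the translation initiation factor eIF2. Most translation then slows, while mRNAs with upstream open reading frames, Atf4 and Atf5 among them, are translated more. ATF4 pairs with C/EBP proteins on DNA and turns on genes for amino acid synthesis, amino acid transport and tRNA charging. It also turns on regulators that act later in the response, such as CHOP (encoded by Ddit3), ATF3, TRIB3 and CHAC1. Because ATF4 and ATF5 are controlled largely at translation, mRNA levels report only on part of their regulation. In brown fat the response is known to be engaged when mitochondria are disturbed.

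Promoter stretches are shown for the members with a strict or relaxed match to the C/EBP-ATF element, the composite site that ATF4 binds with a C/EBP partner. They were taken from RefSeq on mouse assembly GRCm38.p6 and run 5′ to 3′ along the gene's own strand, with the matched letters in capitals. The strict search was for TGATGCAA or its reverse complement TTGCATCA. The relaxed search was for TGATGNAA or TTNCATCA and includes the strict one. Chac1 (chr2:119350992-119351241, plus strand), Nupr1 (chr7:126625471-126625720, minus strand) and Atf3 (chr1:191183334-191183583, minus strand) are shown for the 250 bases before the annotated start. Trib3 (chr2:152344031-152344310, minus strand) matched the relaxed search only and is shown with 30 bases more because its match lies after the start.
Chac1: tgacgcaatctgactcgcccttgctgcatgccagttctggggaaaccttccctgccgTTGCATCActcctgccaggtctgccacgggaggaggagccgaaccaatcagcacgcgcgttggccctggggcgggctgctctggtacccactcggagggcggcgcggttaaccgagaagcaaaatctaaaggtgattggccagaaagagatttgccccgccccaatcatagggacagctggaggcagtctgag
Nupr1: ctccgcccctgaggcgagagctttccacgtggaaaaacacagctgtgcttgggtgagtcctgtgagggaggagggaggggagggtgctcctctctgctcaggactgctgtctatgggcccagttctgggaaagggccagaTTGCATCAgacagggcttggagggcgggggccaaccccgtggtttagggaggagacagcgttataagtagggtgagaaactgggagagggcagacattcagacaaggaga
Atf3: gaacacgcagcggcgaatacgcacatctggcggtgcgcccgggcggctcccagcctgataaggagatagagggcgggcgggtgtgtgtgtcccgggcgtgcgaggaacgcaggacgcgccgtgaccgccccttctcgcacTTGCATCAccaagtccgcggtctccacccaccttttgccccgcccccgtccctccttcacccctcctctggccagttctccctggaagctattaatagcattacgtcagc
Trib3: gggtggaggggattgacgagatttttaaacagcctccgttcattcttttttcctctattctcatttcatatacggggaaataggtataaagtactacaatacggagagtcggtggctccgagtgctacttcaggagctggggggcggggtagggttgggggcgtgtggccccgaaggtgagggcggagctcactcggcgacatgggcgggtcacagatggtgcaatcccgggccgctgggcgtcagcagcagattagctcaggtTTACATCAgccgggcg

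The matches in Atf3 and Nupr1 both spanned positions -110 to -103 from the start. That in Chac1 spanned -193 to -186, and that in Trib3 spanned 15 to 22 after the start. In each of these genes the matched letters on the gene's own strand were TTGCATCA or, in Trib3, TTACATCA. All 10 members had a window of 250 bases before to 50 after the start, and 3 of them held the strict element, against 1.03% of 27025 genes with such windows. With the relaxed element the members numbered 4, against 4.51% of genes. Neither the cyclic AMP response element TGACGTCA, read alike on both strands and found in 2.03% of genes, nor the endoplasmic reticulum stress element occurred in a member's window. That stress element (CCAAT followed after 9 bases by CCACG, or its reverse complement) lay in the windows of 0.137% of genes. A match is a description of letters and shows no binding, and the windows come from RefSeq, since the build behind the deposited values is not given in the sources used here.

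Of the 10 regulators, 5 were higher in knockout brown fat (Atf5, Trib3, Chac1, Atf4 and Nupr1) and none was lower, by limma with Benjamini-Hochberg adjustment over all tested genes at a threshold of 0.05. That is 50% of the members called higher, against 6.95% of all tested genes. The members were chosen with earlier results of these data known, so this share is no independent evidence of its direction. Without Chac1, which passed the filter through the knockout mean, 4 of 9 were called. Calls in either direction took in 7.67% of all tested genes. The 5 members not called were Cebpg, Atf3, Sesn2, Cebpb and Ddit3. Only Atf5 and Trib3 stayed called after median-of-ratios scaling or when any 1 knockout library was left out (2 members each), and 3 members were called without wildtype replicate 3. The median log2 change of the members was 0.37, against 0.08 over all tested genes. In 7 of the 10 members every knockout library lay above every wildtype library, which held for 24.2% of tested genes. For Atf3, among the 7, this was so in 1 of its 4 transcript rows, the row used here. Fold changes are differences of log2(RPKM + 1), knockout minus wildtype, and understate the change of genes with low levels. In bulk tissue, fewer cells of a type and less RNA per cell cannot be told apart.

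The targeted gene checked the labels. Ucp1, which uncouples brown fat mitochondria to make heat, had 375, 389 and 372 RPKM in the knockout libraries, against 3096, 1714 and 3151 RPKM in the wildtype libraries. The difference was called (log2 change -2.75, SE 0.21, limma adjusted p = 0.000404). Library depth, worked out from the spacing of low values, was 15700000 to 17900000 reads in the knockout group and 16100000 to 16200000 reads in the wildtype group. Of 887 genes called, 804 were higher and 83 lower, a higher share of 90.6%. After median-of-ratios scaling 646 genes were called, 494 higher and 152 lower, a higher share of 76.5%. Without knockout replicate 1 the count was 474 genes, and without knockout replicate 2 it was 455 genes. The summed level of 18 skeletal muscle markers was 2076, 2066 and 1840 RPKM in the knockout libraries and 266, 302 and 62.5 RPKM in the wildtype libraries, with all 18 called higher. Summed macrophage markers stood at 76.8, 105 and 104 RPKM in knockout libraries and 48.4, 75.8 and 60.8 RPKM in wildtype libraries, with 1 of 10 tested called. None of the 12 brown adipocyte markers was listed at 0, with 1 called higher and 2, Ucp1 among them, called lower. Their sum was 14148 to 15051 RPKM in knockout and 15717 to 16930 RPKM in wildtype libraries. Ucp1, the targeted gene, is part of this sum, so its lower value in knockout libraries is no measure of brown adipocyte content. Of the tested markers of fibroblasts and preadipocytes 1 of 8 was called, and of endothelial cells, neutrophils and mast cells, nerve and erythroid cells none. No lymphocyte marker passed the filter.

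**Figure D1:**
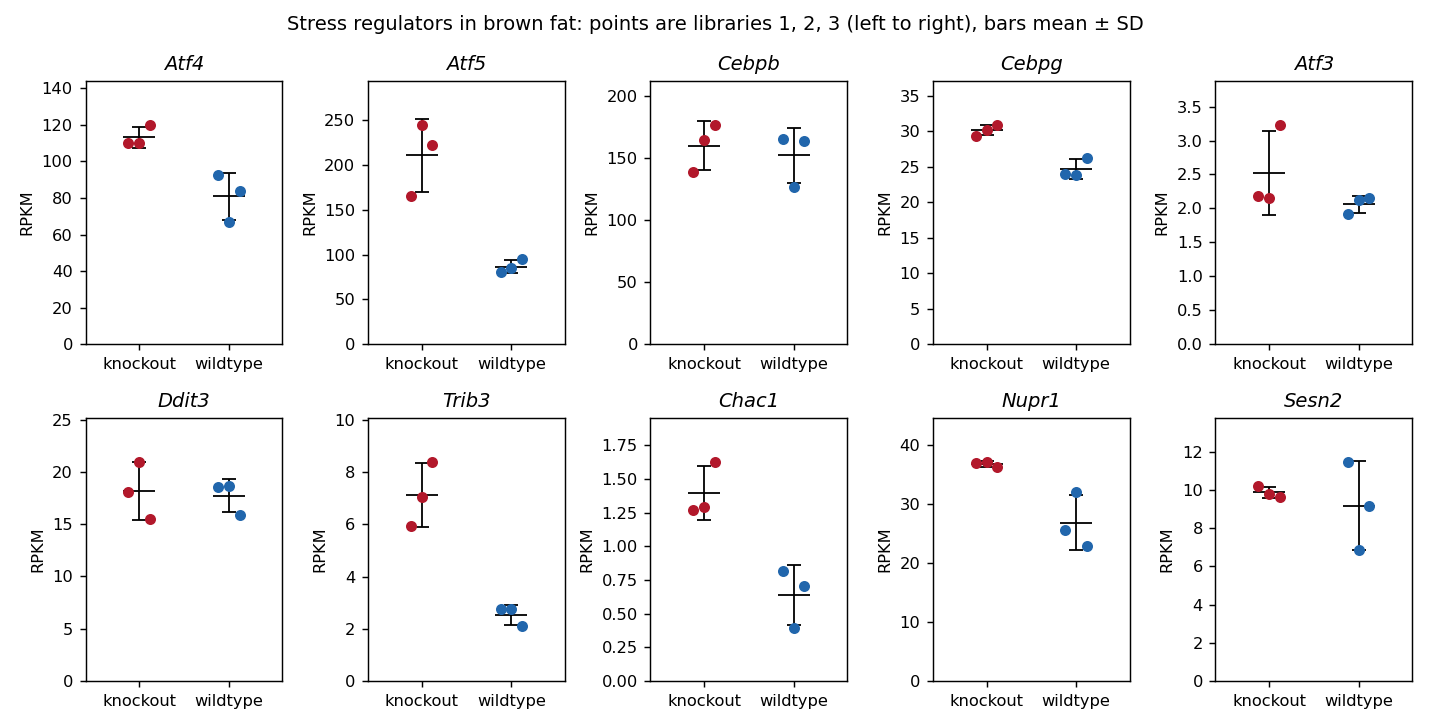
Level of each of the 10 regulators in RPKM (vertical axis, from 0), with knockout on the left and wildtype on the right of each panel. Points are the 3 libraries of a group in replicate order, the long bar is the mean and the whiskers are the SD; the groups stand clear of each other for Atf5, Trib3, Chac1, Atf4, Nupr1 and Cebpg, and nearly touch for Atf3.

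Atf4 and Atf5 are the paired bZIP factors at the head of the response, and both were higher in knockout brown fat. Atf4, the central activator, had 110, 110 and 120 RPKM in the knockout libraries, against 92.4, 67.0 and 83.6 RPKM in the wildtype libraries. The groups did not overlap, and the lowest library of all was wildtype replicate 2. The mean was 114 ± 5.89 RPKM in knockout and 81.0 ± 12.9 RPKM in wildtype (n = 3 each, ± SD), a ratio of 1.40 and a log2 change of 0.49 (SE 0.12, limma adjusted p = 0.0387). Median-of-ratios scaling ended the call (limma adjusted p = 0.081), as did TMM scaling and the absence of a filter, and leaving out any knockout library or wildtype replicate 3. Over 17 alternatives (other scalings, filters, row choices and models, and each library left out) the limma adjusted p was 0.0278 to 0.115.

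Atf5, a close relative of Atf4 that activates mitochondrial chaperones and proteases in mammalian cells, had 166, 245 and 222 RPKM in the knockout libraries. Its wildtype libraries held 80.4, 85.1 and 94.7 RPKM. Every knockout library was well above the highest wildtype library, and the knockout libraries were the more scattered, with a coefficient of variation of 19.4% against 8.41% in wildtype. Means were 211 ± 40.9 RPKM in knockout and 86.7 ± 7.29 RPKM in wildtype (n = 3 each, ± SD), a ratio of 2.43 (log2 change 1.26, SE 0.14, limma adjusted p = 0.00132). The call held in all 17 of these alternatives, with log2 changes of 1.14 to 1.42. Exons of Atf5 overlap those of Il4i1 and Nup62 on the opposite strand in the GENCODE M21 annotation, so reads of these genes cannot be separated without strand.

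The balance of the pair was then compared within each library. Atf5 was 1.5, 2.22 and 1.84 times Atf4 in the knockout libraries and 0.869, 1.27 and 1.13 times Atf4 in the wildtype libraries. The ratio averaged 1.86 ± 0.361 in knockout and 1.09 ± 0.204 in wildtype (n = 3 each, ± SD), without overlap. A two-sided exact permutation test gave p = 0.1, the smallest that 3 against 3 libraries allow, and 0.125 after Benjamini-Hochberg adjustment over the 5 ratios tested. The 5 pairs, here and below, were not fixed in advance. The ratios restate the changes of their members and add no separate evidence.

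**Figure D2:**
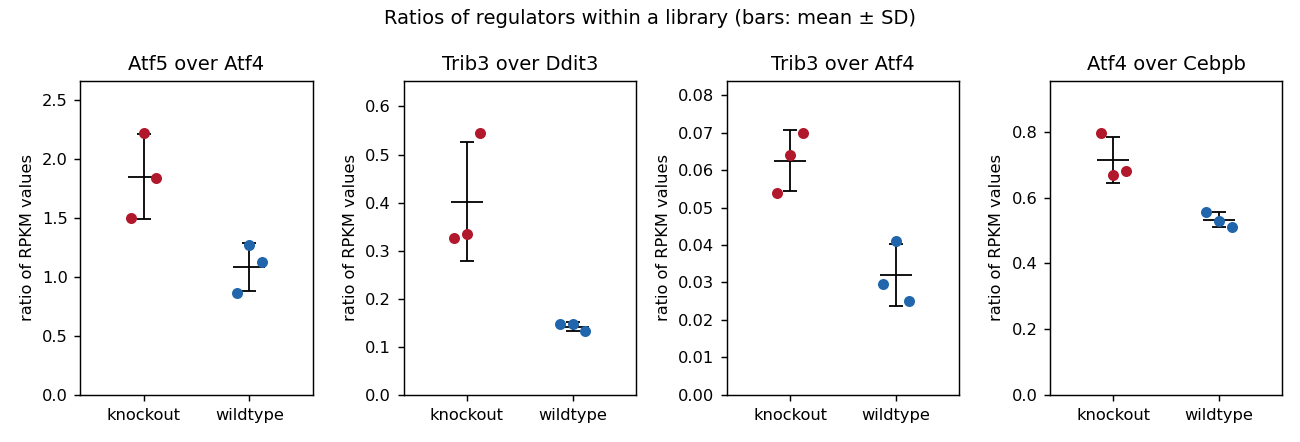
Ratio of the RPKM values of 2 regulators within each library (vertical axis, from 0), knockout on the left and wildtype on the right. Points are libraries, bars are mean and SD; Atf5 over Atf4 was 1.5 to 2.22 in knockout and 0.869 to 1.27 in wildtype libraries, and none of the 4 ratios drawn has overlapping groups. Cebpg over Cebpb, which overlapped, is not drawn.

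Neither C/EBP partner of ATF4 among the members was called. Cebpg, the C/EBP protein that dimerises with ATF4 on amino acid response genes, had 29.4, 30.2 and 30.9 RPKM in knockout libraries, against 24.0, 23.8 and 26.3 RPKM in wildtype libraries. The groups did not overlap and were tight, but the change did not pass the threshold (log2 change 0.28, SE 0.07, limma adjusted p = 0.0520). It passed in 2 of 17 alternatives, a robust fit (limma adjusted p = 0.0478) and the fit without wildtype replicate 3 (limma adjusted p = 0.0468). Exons of Cebpg overlap those of Gm44836 on the same strand and of Gm45095 on the opposite strand.

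Cebpb, a C/EBP factor of adipocyte differentiation and of the stress response, had 139, 165 and 177 RPKM in knockout libraries, against 166, 127 and 164 RPKM in wildtype libraries. The groups overlapped, with a mean of 160 ± 19.7 RPKM in knockout and 152 ± 22.1 RPKM in wildtype (n = 3 each, ± SD). The log2 change was 0.08 (SE 0.13, limma adjusted p = 0.761) and its sign turned in 3 of 17 alternatives. Exons of Cebpb overlap those of Tmem189 on the opposite strand. Transcripts of these genes match on opposite strands over 320 bases at 99.4% identity. Without strand, part of the reads of Cebpb could therefore be assigned to either gene. Atf4 over Cebpb was 0.795, 0.667 and 0.680 in knockout libraries and 0.557, 0.529 and 0.511 in wildtype libraries, without overlap (two-sided exact permutation p = 0.1, adjusted 0.125). Cebpg over Cebpb was 0.212, 0.183 and 0.174 in knockout libraries and 0.145, 0.188 and 0.161 in wildtype libraries, with overlap (two-sided exact permutation p = 0.3, adjusted 0.3).

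Ddit3 and Atf3, transcription factors that ATF4 induces, were not called. Ddit3, which encodes CHOP, a C/EBP-related factor tied to cell death under lasting stress, had 18.1, 21.0 and 15.5 RPKM in knockout libraries, against 18.6, 18.7 and 15.9 RPKM in wildtype libraries. The lowest and the highest library were both knockout libraries, and the log2 change was 0.03 (SE 0.12, limma adjusted p = 0.914), with its sign turned in 4 of 17 alternatives. Exons of Ddit3 overlap those of Mars and Gm4189 on the opposite strand.

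Atf3, a bZIP factor induced quickly by many stresses, had 2.18, 2.15 and 3.23 RPKM in knockout libraries, against 1.92, 2.12 and 2.15 RPKM in wildtype libraries. Apart from knockout replicate 3 the libraries lay close together, and the lowest knockout library exceeded the highest wildtype library only past the third digit. The log2 change was 0.19 (SE 0.13, limma adjusted p = 0.408). An estimate from transcript length and depth gives 69, 67 and 115 reads for Atf3 in knockout libraries and 62, 68 and 69 reads in wildtype libraries.

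**Figure D3:**
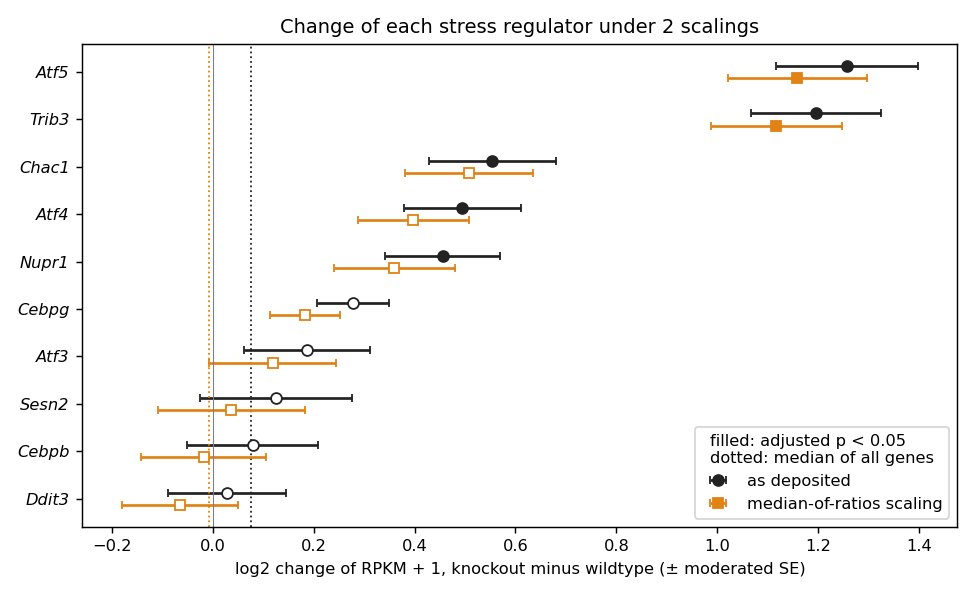
Difference of log2(RPKM + 1), knockout minus wildtype, for each regulator (horizontal axis) with its moderated standard error as bars, as deposited (circles) and after median-of-ratios scaling (squares). Filled symbols passed an adjusted p of 0.05 and dotted lines mark the median of all tested genes; 5 members are filled as deposited and 2, Atf5 and Trib3, after scaling.

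The effectors Trib3 and Chac1 were higher in the knockout. Trib3, a pseudokinase that ATF4 and CHOP induce and that in turn restrains ATF4, had 5.94, 7.04 and 8.41 RPKM in knockout libraries, against 2.75, 2.76 and 2.10 RPKM in wildtype libraries. Every knockout library was above every wildtype library by a wide margin. The mean was 7.13 ± 1.24 RPKM in knockout and 2.54 ± 0.378 RPKM in wildtype (n = 3 each, ± SD), a ratio of 2.81 (log2 change 1.2, SE 0.13, limma adjusted p = 0.00116). The call held in all 17 alternatives, with log2 changes of 1.08 to 1.49.

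Trib3 was also set against Ddit3, another gene that ATF4 induces. Trib3 over Ddit3 was 0.327, 0.335 and 0.544 in knockout libraries and 0.147, 0.147 and 0.132 in wildtype libraries. The log2 ratio was 1.46 higher in knockout (two-sided exact permutation p = 0.1, adjusted 0.125). Trib3 over Atf4 was 0.0538, 0.0639 and 0.0698 in knockout libraries and 0.0297, 0.0412 and 0.0251 in wildtype libraries, again without overlap and at the smallest exact permutation p of 0.1 (adjusted 0.125).

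Chac1, an enzyme that breaks down glutathione, was the lowest of the members, with 1.27, 1.29 and 1.63 RPKM in knockout libraries and 0.819, 0.393 and 0.706 RPKM in wildtype libraries. The groups did not overlap, and wildtype replicate 2 was the lowest library. The ratio of means was 2.19 (log2 change 0.55, SE 0.13, limma adjusted p = 0.0350). These levels rest on about 33, 33 and 48 reads in knockout libraries and 22, 10 and 19 reads in wildtype libraries. The call was lost in 9 of 16 alternatives, among them both other scalings and leaving out any knockout library or wildtype replicate 2 or 3.

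Nupr1, a small chromatin-associated stress protein, had 37.0, 37.2 and 36.3 RPKM in knockout libraries, against 25.6, 32.1 and 22.9 RPKM in wildtype libraries. The groups did not overlap, and the knockout libraries were almost level, with a coefficient of variation of 1.30% against 17.6% in wildtype. The log2 change was 0.46 (SE 0.11, limma adjusted p = 0.0480), close to the threshold. The call held in 5 of 17 alternatives and was lost when any library other than wildtype replicate 2 was left out, with limma adjusted p values of 0.00387 to 0.152 over the 17.

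Sesn2, a sestrin that senses leucine and restrains TORC1, had 10.2, 9.82 and 9.64 RPKM in knockout libraries, against 11.5, 6.84 and 9.19 RPKM in wildtype libraries. The knockout libraries fell inside the wildtype range, and the log2 change was 0.13 (SE 0.15, limma adjusted p = 0.662).

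The order of the levels differed between the groups. In knockout libraries Atf5 was highest and overlapped with Cebpb, and Atf4 came next without overlap. Then followed Nupr1, Cebpg, Ddit3, Sesn2, Trib3, Atf3 and Chac1, and none of these overlapped its neighbour. In wildtype libraries Cebpb was highest, while Atf5 and Atf4 overlapped, as did Nupr1 and Cebpg, and Trib3 and Atf3. Over all 6 libraries Cebpb averaged 156 RPKM, Atf5 149 RPKM and Atf4 97.3 RPKM, above 97.8%, 97.8% and 96.4% of tested genes. Trib3, at 4.83 RPKM, lay above 41.3% of tested genes, and Chac1, at 1.02 RPKM, above 2.72%.

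The transcript rows of a member gave like ratios in most cases, though rows of a gene share reads. All 4 rows of Atf5 had knockout over wildtype ratios of 2.40 to 2.43, and all 5 of Trib3 had ratios of 2.81 to 3.03. The 4 rows of Atf4 lay at 1.39 to 1.40 and the 8 of Cebpg at 1.2 to 1.27, each without overlap of the groups. The 9 rows of Sesn2 ranged from 1.08 to 4.09, and all had overlapping groups. The ratio of 4.09 came from a row that averaged 0.0311 RPKM in knockout and 0.00759 RPKM in wildtype libraries. Rows of Sesn2 above 1 RPKM had ratios of 1.08 to 1.09.

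Skeletal muscle markers moved with genotype as well, as did the macrophage marker Mpeg1, the fibroblast marker Col3a1 and the brown adipocyte markers Elovl3 (higher), Prdm16 and Ucp1 (both lower). Their part in the members' differences was not tested. Among wildtype libraries, replicate 3 had the lowest summed muscle markers (62.5 RPKM). Of the called members it had the highest Atf5 (94.7 RPKM) and the lowest Trib3 (2.10 RPKM) and Nupr1 (22.9 RPKM). Its Atf4 (83.6 RPKM) and Chac1 (0.706 RPKM) were the middle values of the group. These are values of a single library, and no relation of the members to muscle markers was tested.

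Genes that ATF4 is known to control were then read beside the members. Of 46 such genes other than the members, 36 were tested, 26 were higher, none was lower and 10 did not pass. The share called, 72.2%, stood against 7.67% of all tested genes, and the median log2 change was 0.58. After median-of-ratios scaling 23 were called. Phgdh, Aldh18a1, Slc7a1, Slc6a9 and Slc1a4 passed the filter through the knockout mean only, and 21 of the other 31 were called. The list was chosen with earlier results of these libraries known and is no independent evidence of its direction.

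Mthfd2, a mitochondrial folate enzyme, showed the largest log2 change among the tested genes of the list, with 9.23, 13.3 and 7.39 RPKM in knockout libraries, against 0.946, 1.55 and 0.773 RPKM in wildtype libraries (log2 change 2.38, limma adjusted p = 0.000487). Aars, the alanyl-tRNA synthetase, averaged 21.8 ± 0.670 RPKM in knockout and 12.6 ± 0.897 RPKM in wildtype (n = 3 each, ± SD; log2 change 0.75). Sars, the seryl-tRNA synthetase, averaged 24.0 ± 1.12 RPKM in knockout and 14.7 ± 0.499 RPKM in wildtype (log2 change 0.67). Pck2, the mitochondrial phosphoenolpyruvate carboxykinase, averaged 8.70 ± 1.09 RPKM in knockout and 3.67 ± 0.489 RPKM in wildtype (log2 change 1.05). These 4 genes were called in all 17 alternatives.

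By role, 10 of 11 aminoacyl-tRNA synthetases, 4 of 6 tested amino acid transporter subunits and 4 of 5 tested serine, glycine and folate enzymes were higher. Without the genes that passed the filter through the knockout mean only, 1 of 3 transporter subunits and 3 of 4 of these enzymes were higher. The synthetase not called was Mars, whose exons overlap those of Ddit3. Of the 10 genes of the list under the filter, 8 had every knockout library above every wildtype library and 2, Mthfd1l and Slc7a3, had every knockout library below. Over all 8965 genes under the filter and above 0 in a library, these shares were 13.8% above and 2.74% below. The strict C/EBP-ATF element lay in the promoter windows of 6 of 22 genes called higher and 2 of 8 tested but not called higher, among genes of the list that have a window.

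**Figure D4:**
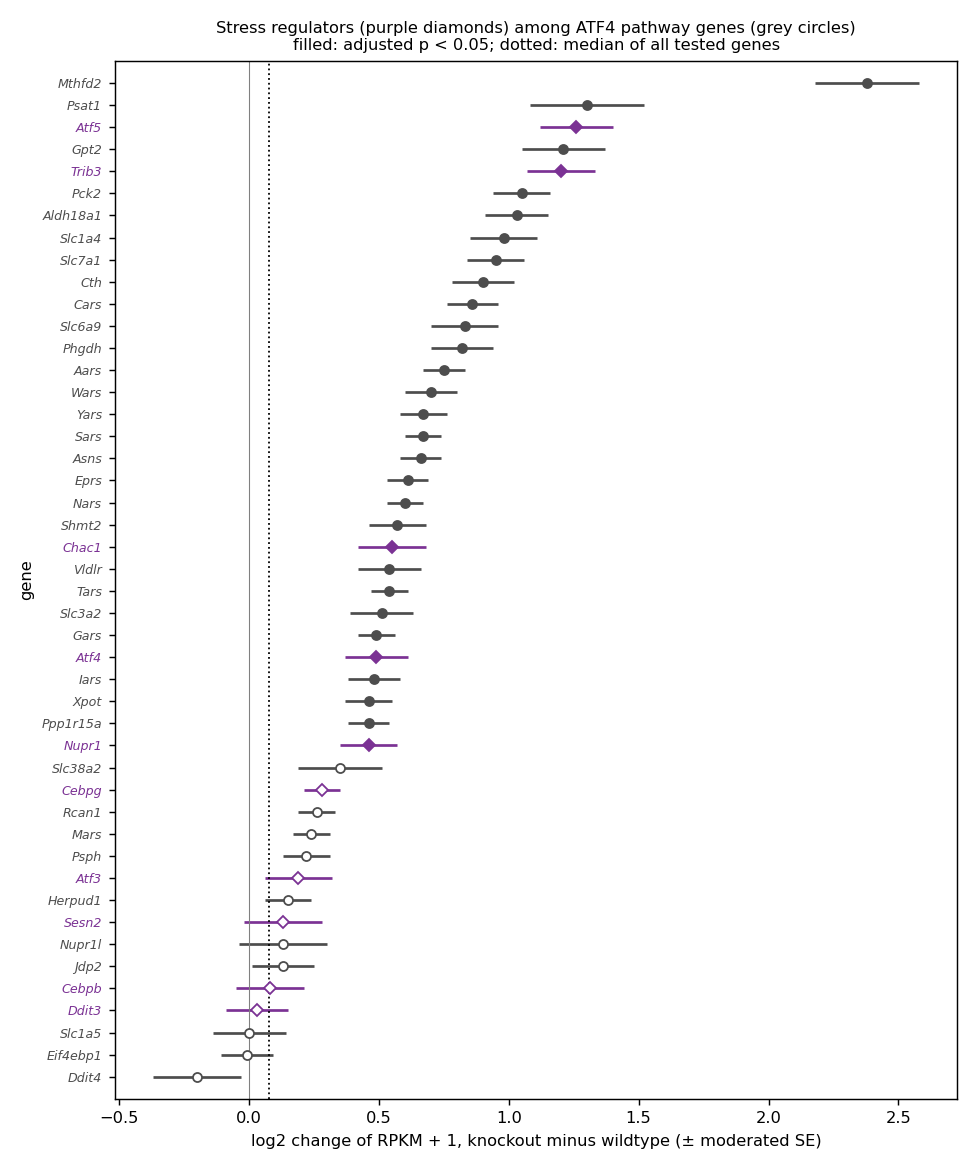
Difference of log2(RPKM + 1), knockout minus wildtype (horizontal axis), with moderated standard errors for the 10 regulators (diamonds) and the 36 tested ATF4 pathway genes (circles), in order of size. Filled symbols passed an adjusted p of 0.05 and the dotted line is the median of all tested genes; Atf5 and Trib3 lie among the largest changes, near Psat1 and Gpt2, and Ddit3 and Cebpb near 0.

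Genes upstream of Atf4 were read next. The list held eIF2 kinases, eIF2 and eIF2B subunits and their regulators, and also Egln1, Egln3 and Btrc, which are not eIF2 regulators. Of 23 tested, 2 were higher, 1 (Egln3) was lower and 20 did not pass. The share called was 13% against 7.67% of all tested genes, with a median log2 change of 0.05. Without knockout replicate 1, 1 of the 23 was called. Ppp1r15a (GADD34), which recruits the phosphatase that reverses eIF2 phosphorylation and is itself an ATF4 pathway gene, averaged 13.7 ± 0.129 RPKM in knockout and 9.72 ± 0.821 RPKM in wildtype (n = 3 each, ± SD; log2 change 0.46, limma adjusted p = 0.0102). Eif2s2, the beta subunit of eIF2, averaged 9.86 ± 0.739 RPKM in knockout and 6.98 ± 0.274 RPKM in wildtype (log2 change 0.44, limma adjusted p = 0.0118). Egln3, an oxygen-dependent prolyl hydroxylase, averaged 5.61 ± 0.355 RPKM in knockout and 8.03 ± 1.2 RPKM in wildtype (log2 change -0.44, limma adjusted p = 0.0391), a call that held in 9 of 17 alternatives.

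Of 32 tested paralogs and relatives of the members, 1 was higher, 2 were lower and 29 did not pass. The share called, 9.38%, was near the 7.67% of all tested genes, and 1 was called without knockout replicate 2 or without knockout replicate 3. Trib1, a paralog of Trib3, had 22.0, 18.1 and 23.6 RPKM in knockout libraries, against 36.6, 24.2 and 27.5 RPKM in wildtype libraries. Every knockout library of Trib1 was below every wildtype library, but the change was not called (log2 change -0.44, limma adjusted p = 0.130). Trib2 gave a log2 change of -0.15, Sesn1 of 0.10, Sesn3 of 0.28 and Chac2 of -0.04, and none was called. Among C/EBP genes, Cebpa averaged 199 ± 14.4 RPKM in knockout and 186 ± 36.6 RPKM in wildtype (n = 3 each, ± SD), and Cebpa, Cebpd and Cebpz had log2 changes of 0.11, 0.17 and 0.09, none called. Differences between a member and its paralog were not tested.

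The 2 lower relatives were the bZIP clock output factors Dbp and Tef. Dbp averaged 22.0 ± 4.21 RPKM in knockout and 48.0 ± 11.6 RPKM in wildtype (n = 3 each, ± SD; log2 change -1.08, limma adjusted p = 0.00764). Tef averaged 49.3 ± 5.21 RPKM in knockout and 65.4 ± 3.25 RPKM in wildtype (log2 change -0.41, limma adjusted p = 0.0332), a call that held in 11 of 17 alternatives. The higher relative was Atf6, the membrane-bound sensor of endoplasmic reticulum stress, with 10.6 ± 0.967 RPKM in knockout and 7.81 ± 0.805 RPKM in wildtype (log2 change 0.39, limma adjusted p = 0.0451), a call that held in 7 of 17 alternatives. The time of day of collection is not in the labels.

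Among genes that answer unfolded protein in the endoplasmic reticulum, 4 of 21 tested were higher and 17 did not pass, a share called of 19.0% against 7.67% of all tested genes, with a median log2 change of 0.08, the same as over all tested genes. After median-of-ratios scaling 1 was called, and 1 to 2 were called when any library other than wildtype replicate 3 was left out. Sel1l, an adaptor of protein degradation at the endoplasmic reticulum, averaged 18.2 ± 0.90 RPKM in knockout and 11.8 ± 0.243 RPKM in wildtype (n = 3 each, ± SD; log2 change 0.58, limma adjusted p = 0.00177). Edem1 (log2 change 0.39), Ern1, the sensor IRE1 (0.50), and Atf6 were the others called as deposited. The mitochondrial unfolded protein response, in which ATF5 has a known part, had 1 of 15 tested genes higher and 14 that did not pass, with a median log2 change of 0.04. This share, 6.67%, was near the 7.67% of all tested genes, and 2 were called without wildtype replicate 1, 1 higher and 1 lower. The list also counts Hspa1a, a cytosolic chaperone, which was not called as reported (log2 change -0.56, limma adjusted p = 0.165). The called gene was Clpx, the unfoldase subunit of a matrix protease, with 45.7 ± 1.44 RPKM in knockout and 33.9 ± 1.42 RPKM in wildtype (n = 3 each, ± SD; log2 change 0.42, limma adjusted p = 0.00769).

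The genes whose log2 values followed Atf4 most closely over the 6 libraries, among 6243 genes that averaged 5 RPKM or more, were Mzt2 (Pearson r 0.996), Adrb1 (0.992) and Ptbp2 (0.991). For Atf5 they were Dym (0.998), Rcan1 (0.996) and Eya3 (0.995). An r of at least 0.9 was reached by 278 genes with Atf4 and by 355 genes with Atf5. The libraries form 2 groups and share their depth and normalization, so these values are a description. Adrb1 encodes an adrenergic receptor, and Rcan1, a regulator of calcineurin, is also in the ATF4 pathway list.

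**Figure D5:**
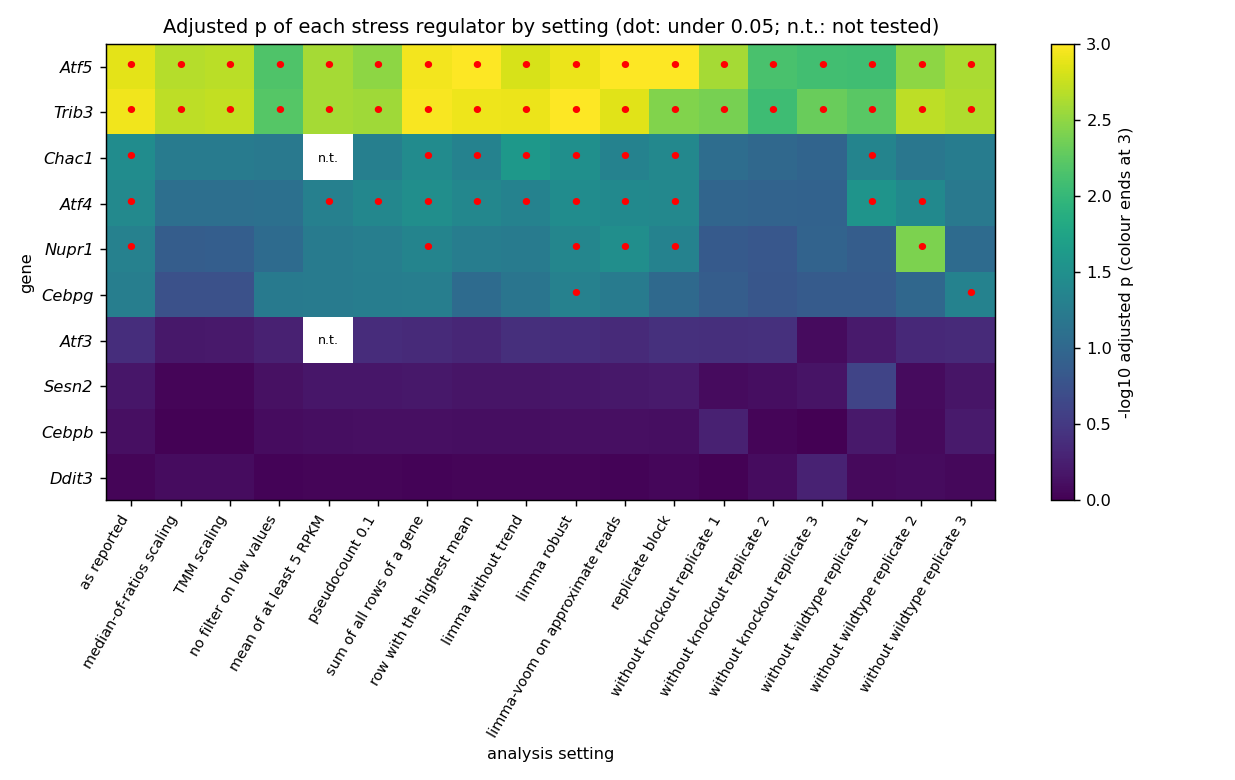
The -log10 of the limma adjusted p of each regulator (rows) as reported and under each other analysis setting (columns), with the colour scale ending at 3; a dot marks an adjusted p under 0.05 and n.t. marks a gene not tested. Atf5 and Trib3 carry a dot in every column, Atf3, Sesn2, Cebpb and Ddit3 in none, and Chac1, Atf4, Nupr1 and Cebpg in some.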

How the data were processed

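Per the labels' protocols, total RNA of interscapular brown fat was made into TruSeq libraries. CASAVA and bcl2fastq are named in the submitters' processing notes. The deposited table of the authors holds RPKM values in 168326 transcript rows and 6 library columns. No header names the unit, which was worked out from the deposited values: products of low values and transcript length were whole multiples of a step per library for 96.2% to 96.4% of 7861 to 8349 products, within a tolerance of 0.1 reads. Rows with no gene identifier (23170, 13.8%) were left out. A gene was represented by its RefSeq row with the highest mean, or by the highest row of any kind where it had none. No 2 libraries shared the values of more than 2 genes. The authors' aligner, build and annotation were not given in the sources used here.

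Values were transformed to log2(RPKM + 1) and genes averaging 1 RPKM or more in knockout or wildtype libraries were tested with limma 3.58.1 in R 4.3.3 with an intensity trend, knockout against wildtype, and adjusted by the Benjamini-Hochberg method over 11562 genes (two-sided). The script was tested on simulated data. Approximate reads came from transcript lengths matched to GENCODE M21. Alternatives changed the scaling, filter, pseudocount, row choice, model, threshold and libraries. The members, the 7 gene lists and the marker lists were chosen with earlier results of these data known. Named were all members, Ucp1, from each list up to 4 called genes with the smallest adjusted p, every tested Trib, Sesn, Chac and Cebp paralog, and the 3 genes most like Atf4 and Atf5. Mars, Mthfd1l, Slc7a3, Psat1, Gpt2, Sestd1, Hspa1a, Egln1, Btrc and single cell type markers were named after their values were seen. So were the genes said to have passed the filter through the knockout mean only. The table holds no counts, so library depth is an estimate and intervals of counting error are not given.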

Additional observations from a re-analysis of the deposited data

How the results depend on the processing

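The number of members called, 5 as reported, was 2 after median-of-ratios scaling, 2 after TMM scaling, 2 with no filter on low values and 2 at an adjusted p of 0.01. It was 3 with a mean of at least 5 RPKM and 3 with a pseudocount of 0.1. Leaving out 1 library at a time gave 2 to 4 members called. It stayed within 1.5 times of 5 (4 to 6) in the other settings. The number of genes called, 887 as reported, was 454 with a mean of at least 5 RPKM, 368 at an adjusted p of 0.01 and 455 to 849 with 1 library left out at a time. With TMM scaling the higher share of calls was 77.1%. Other ATF4 pathway genes called, 26 as reported, numbered 22 to 27 with 1 library left out. The 27, found without wildtype replicate 2, were 26 higher and 1 lower. The causes were not tested. Deviations of libraries with the same number correlated at -0.02 to 0.09, and of libraries with different numbers at -0.14 to 0.07. No strong pairing by number was seen, but whether libraries of the same number share a batch cannot be told from these values. With a replicate block 775 genes and 5 members were called. Among the members, Ucp1 and the genes named by rule, none called as reported changed sign in any setting. Signs of the other called genes were not compared. Depth limits Chac1 most, with 10 to 48 approximate reads a library.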

Other observations

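Sestrins are known both as p53 targets and as inputs to TORC1, and lists of both kinds were read beside the members. Of 12 tested p53 targets, 2 were higher, none was lower and 10 did not pass, a share called of 16.7% against 7.67% of all tested genes, with a median log2 change of 0.13. Gadd45a, a stress sensor that restrains the cell cycle, averaged 2.83 ± 0.780 RPKM in knockout and 1.0 ± 0.531 RPKM in wildtype (n = 3 each, ± SD; log2 change 0.95, limma adjusted p = 0.0284), a call that held in 11 of 16 alternatives. Bax, a death effector of mitochondria, averaged 10.5 ± 0.598 RPKM in knockout and 8.11 ± 0.468 RPKM in wildtype (log2 change 0.34, limma adjusted p = 0.0342), a call that held in 5 of 17 alternatives. After median-of-ratios scaling 1 of the list was called, as without wildtype replicate 1 or 3. With any knockout library left out limma called 0, and the adjusted p of Gadd45a and Bax was 0.0556 to 0.107. With no filter on low values limma called 0 as well.

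Of 21 tested genes listed for the sestrin and TORC1 pathway, 1 was higher, none was lower and 20 did not pass. The share called was 4.76% against 7.67% of all tested genes, and the median log2 change was 0.09. These counts include Sestd1 (log2 change 0.20, not called), which is not a sestrin despite its name. The higher gene was Rragd, a Rag GTPase that recruits TORC1 to lysosomes. It had 2.26, 2.61 and 1.85 RPKM in knockout libraries, against 0.619, 0.476 and 0.597 RPKM in wildtype libraries (log2 change 1.05, limma adjusted p = 0.00114), and it passed the filter through the knockout mean only. The call on Rragd held in 16 of 16 alternatives. From the list 2 genes were called without wildtype replicate 2 (1 higher and 1 lower) and 2 without wildtype replicate 3 (both higher).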
